A study of Homo sapiens with 21 samples.

Results

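Whole-cell RNA of RS4;11 cells starved of asparagine but given iron was compared with RNA of the same cells in complete medium, to see which functions stood at the complete-medium level and which did not. RS4;11 is an established line of B-cell precursor acute lymphoblastic leukaemia with a KMT2A-AFF1 fusion, and every group used here is this line after 24 h of culture. The first group (-Asn+Fe) had no asparagine and received 10 µM ferric nitrate together with 0.75 µM hinokitiol, a plant compound that binds iron and ferries it through membranes. A second group (-Asn) had no asparagine and no added iron, and the complete-medium group (+Asn) had asparagine and no added iron. The labels do not say whether -Asn and +Asn received hinokitiol, so a part of iron and a part of hinokitiol cannot be told apart, and -Asn+Fe differs from +Asn in asparagine as well. The comparison uses 6 of the 21 samples of the series, 3 libraries of -Asn+Fe and 3 of +Asn. The 3 libraries of -Asn, a parallel group, serve as the reference against which a return is judged. Of 60558 genes on the primary chromosomes, 17692 had enough counts to be tested. Separate cultures for the libraries of a group are not recorded in the labels, so p-values measure only how these libraries scatter, a scatter that may be technical.

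Cells that run short of an amino acid accumulate uncharged transfer RNAs, which activate the kinase GCN2. GCN2 slows general translation while the transcription factor ATF4 is made in larger amounts and switches on amino acid transporters, synthetases and stress genes. Iron, in turn, is sensed by iron regulatory proteins that stabilise the transferrin receptor mRNA and block ferritin translation when iron is scarce, while NRF2, the transcription factor of the oxidative stress response, drives ferritin, glutathione and quinone-reducing genes.

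The libraries held 29362707 to 42478518 counts in -Asn+Fe, 36773377 to 41898475 in -Asn and 39155120 to 40988303 in +Asn. The cells carried their labelled identity in the sense that 31 of 32 precursor B cell markers reached 1 CPM (counts scaled to a common library size that allows for composition) in at least 1 group, against 5 of 17 T and NK cell markers, 7 of 16 myeloid, 2 of 15 erythroid and megakaryocyte, and 3 of 11 fibroblast and endothelial markers. The T and NK markers at that level were CD28, TRAC, LCK, ZAP70 and NKG7, and the summed CPM of the 17 was 396 to 456 in -Asn+Fe, 495 to 566 in -Asn and 499.95 to 517 in +Asn, most of it from TRAC (262 CPM on average in -Asn+Fe and 349 CPM in +Asn). The T cell receptor partners CD3D, CD3E and CD3G averaged 0.0169, 0 and 0.0222 CPM in -Asn+Fe and 0, 0 and 0.0096 CPM in +Asn. The first principal component of the 9 libraries held 79.1% of the variance, and on it -Asn+Fe (39.0 to 40.0) lay further from +Asn (-62.9 to -62.7) than -Asn did (22.98 to 24.0). The first library of -Asn (replicate 1) differed most from the others of its group, with a chi-square per degree of freedom of 40.8 and 45.1 against its group's other libraries and 6.19 between those, while the values within -Asn+Fe were 3.93 to 9.09 and within +Asn 4.23 to 16.4. Without it, 12426 genes were called between -Asn+Fe and +Asn, against 11533 with it.

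By the quasi-likelihood test of edgeR, -Asn+Fe and +Asn still differed widely. At a Benjamini-Hochberg adjusted p under 0.05, which is the meaning of "called" here, 5861 genes (33.1% of those tested) were higher in -Asn+Fe and 5672 (32.1%) lower. Of these, 3081 were higher and 1863 lower at least 2-fold. A test against a 1.5-fold change placed 3148 genes (17.8%) past that fold on the higher side and 2570 (14.5%) on the lower side. A gene counted as standing at the complete-medium level where the 95% interval of its change lay inside 1.5-fold in both directions, which held for 4494 genes (25.4%), 1794 of them with a small but called difference. The other 7480 genes were neither past nor within 1.5-fold. Libraries that do not overlap were common: all -Asn+Fe libraries lay above all +Asn libraries in 6403 of the 17692 tested genes, and below them in 6155. Statements below that groups did not overlap are to be read against these counts. Long noncoding RNAs leaned upward, with 1463 of 3274 called higher and 324 lower (median log2 fold change 0.61), while protein-coding genes held 3884 higher and 5085 lower of 12401 (median -0.08).

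Every direction here is relative to the bulk of genes. The scaling for library composition (TMM) lay between 1.06 and 1.09 in -Asn+Fe and between 0.888 and 0.913 in +Asn, and the median change of all tested genes was 0.05 on the log2 scale. Scaled by library totals alone, the median became 0.31 and the calls 7996 higher and 3955 lower, so that 66.9% of calls were on the higher side against 50.8% with TMM. Upper-quartile factors gave a median of 0.26 with 7583 higher and 4263 lower.

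The -Asn libraries show the level of each gene without asparagine and without added iron. They are a parallel group at 24 h and not an earlier state of the -Asn+Fe cells. Words such as back, moved, raised, lowered and further away compare groups here and do not follow cells over time. Between -Asn and +Asn 10888 genes (61.5%) were called, and between -Asn+Fe and -Asn 5518 (31.2%). The 3 comparisons share their libraries, and a -Asn group that stood off by chance would give opposite calls on both of its sides, so the counts that follow are a description. Of the 10888 genes, 990 (5.6% of all tested) were back at the complete-medium level: called between -Asn+Fe and -Asn in the direction opposite to starvation, and with an interval of -Asn+Fe over +Asn inside 1.5-fold. Back does not mean equal, since 274 of the 990 were still called different from +Asn. Another 639 genes (3.61%) were part way back, called in the opposite direction but still called on the starved side of +Asn. A further 66 genes were past the other side of the complete-medium level, and 159 moved back without a decided end point. In contrast, 2105 genes (11.9%) were further away from +Asn in -Asn+Fe than in -Asn, 850 of them upward and 1255 downward. For 6929 genes no difference was called between -Asn+Fe and -Asn.

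Genes that were back differed little between -Asn and +Asn, with a median absolute log2 change of 0.48. It was 1.254 for genes part way back and 0.79 for genes further away. Of the 3850 genes that starvation had changed by less than 1.5-fold, 679 (17.6%) were back, of 2954 changed 2- to 4-fold 28 (0.948%), and of 1098 changed over 4-fold none. This count depends in part on its own definition, since a small change can come inside 1.5-fold with a small reversal. Part way back, by contrast, were 315 (10.7%) of the genes changed 2- to 4-fold and 120 (10.9%) of those changed over 4-fold. Which genes were back depended on the scaling: library totals alone gave 980, of which 530 were shared, and 314 of the 990 (31.7%) were back in each of 15 other settings that tested them. The genes named below as back in all settings come from those 314. All settings there means these 15, which kept the 1.5-fold limit and did not include DESeq2. With a narrower limit, 25% above +Asn and the same ratio below it, 425 genes were back. A gene named as back in all settings need not be among those 425.

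**Figure D1:**
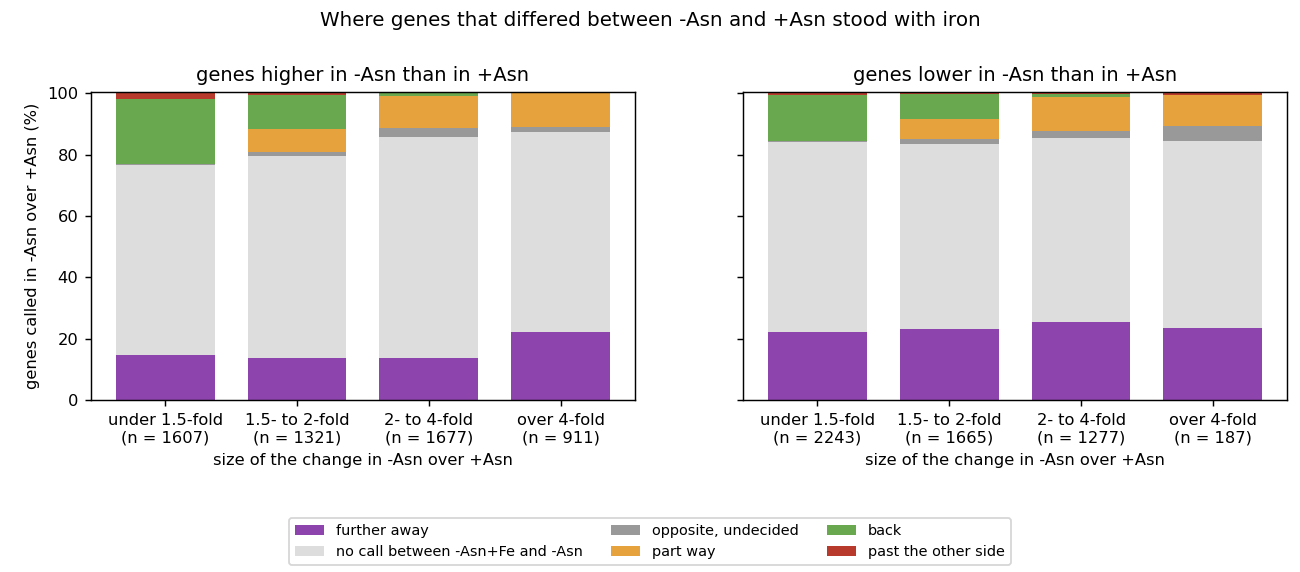
Share of the genes called between -Asn and +Asn (y axis, %) by where they stood in -Asn+Fe, for genes higher (left) and lower (right) in -Asn, split by the size of the change in -Asn over +Asn (x axis, with the number of genes). Green marks genes back at the +Asn level, orange those part way, purple those further away, red those past the other side, dark grey those with an undecided end point and light grey those with no call between -Asn+Fe and -Asn. Genes back at the +Asn level are 21.2% of those higher in -Asn by less than 1.5-fold and 0 of 911 of those higher over 4-fold.

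**Figure D2:**
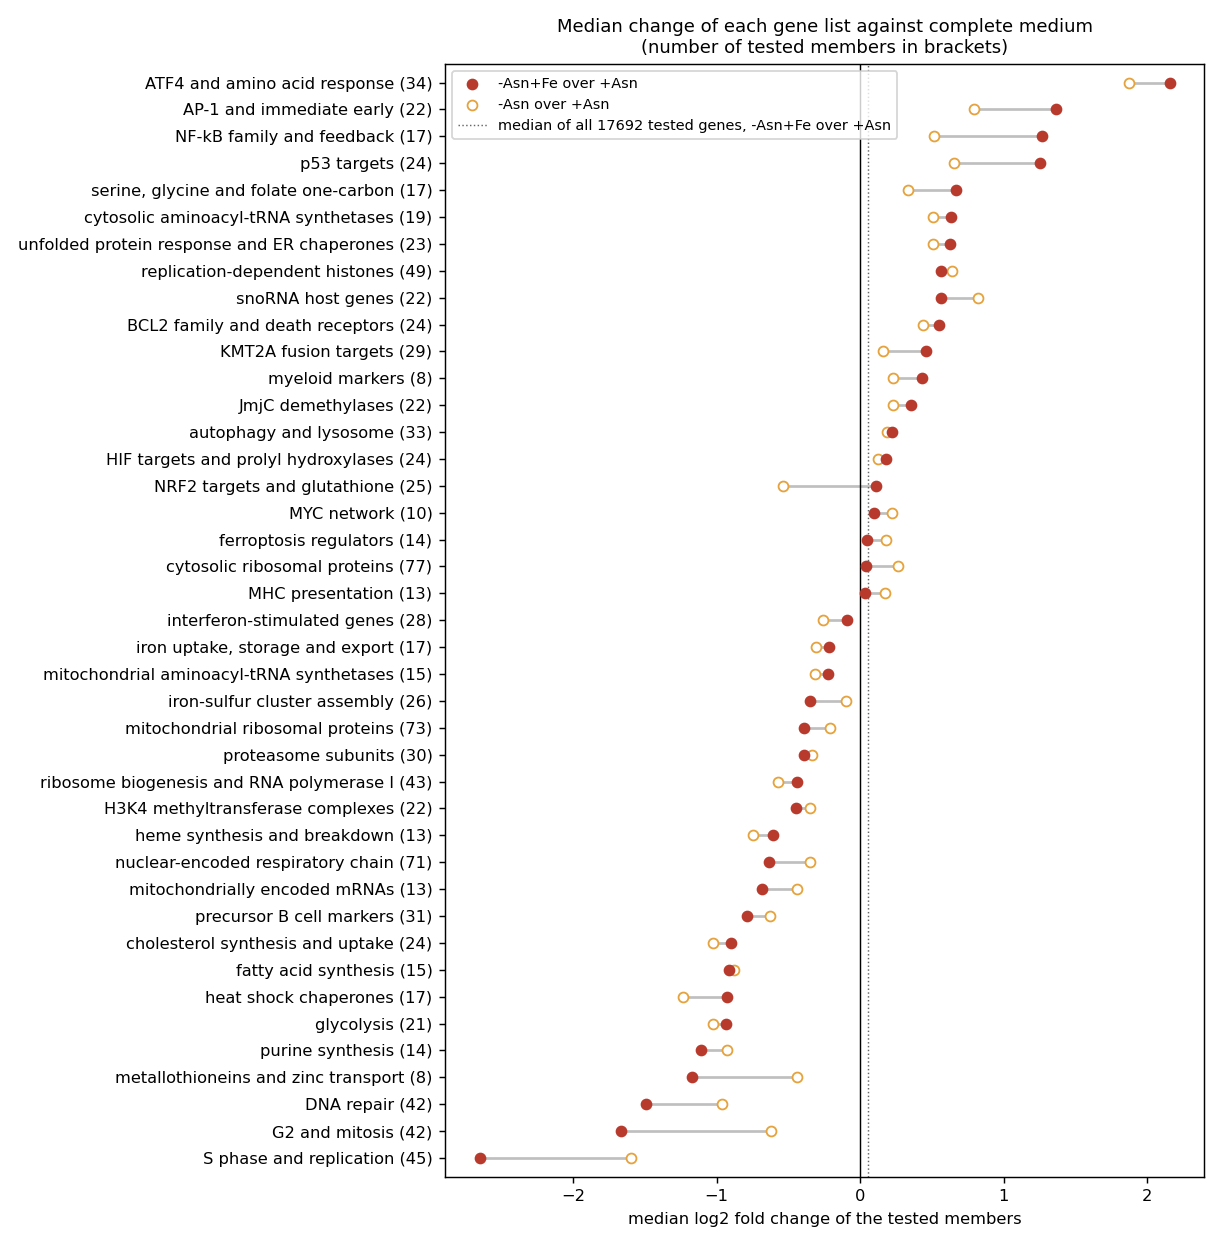
Median log2 fold change of the tested members of each gene list with at least 8 tested members (x axis), in -Asn+Fe over +Asn (filled red) and in -Asn over +Asn (open orange), with the median of all tested genes as a dotted line. Most lists keep their side of 0, S phase and mitosis lie further from 0 with iron, and the NRF2 list lies at -0.54 without iron and 0.11 with it.

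Of the 44 gene lists described, DNA replication had the lowest median. Every count of list members below is to be read against the share over all tested genes, which is 33.1% called higher, 32.1% called lower, 25.4% within 1.5-fold, 5.6% back, 3.61% part way and 11.9% further away. Within and back need a narrow interval, which genes with few counts reach less easily. Of the 10090 genes of a stricter low-count filter, 4224 were within 1.5-fold and 1013 back, larger shares than over all tested genes. How far the shares of the lists reflect their count level was not tested. All 45 tested S phase genes were called lower in -Asn+Fe (32.1% of all tested genes), all 45 past 1.5-fold (14.5% of all tested genes), and their median log2 fold change was -2.65, against 0.05 over all tested genes. In -Asn over +Asn the same median was -1.60, and 44 of the 45 were further away with iron (11.9% of all tested genes). GINS2, a subunit of the replicative helicase, was at 5.45, 6.12 and 6.06 CPM in the 3 -Asn+Fe libraries, 17.6, 14.1 and 15.3 CPM in -Asn and 114, 106 and 111 CPM in +Asn, 18.9-fold lower in -Asn+Fe than in +Asn (log2 -4.24 with SE 0.09, adjusted p = 2.10e-15). The 3 groups did not overlap, and the same order held for the next genes. CCNE2, a cyclin that starts S phase, was at 8.02, 7.27 and 7.91 CPM in -Asn+Fe, 16.2, 20.1 and 20.6 CPM in -Asn and 183, 189 and 179.8 CPM in +Asn (log2 -4.57 in -Asn+Fe over +Asn). RRM1, the large subunit of ribonucleotide reductase, an enzyme whose small subunit holds an iron centre, was at 21.99, 21.8 and 21.5 CPM in -Asn+Fe, 46.03, 47.1 and 47.1 CPM in -Asn and 334, 335 and 340.01 CPM in +Asn (log2 -3.95). TK1, the thymidine kinase, averaged 5.54 ± 0.295 CPM in -Asn+Fe and 95.995 ± 10.3 CPM in +Asn, and MCM4, another helicase subunit, 65.1 ± 2.36 and 899.6 ± 16.3 CPM (± gives the SD over the 3 libraries of a group, n = 3, here and below). CDC45, which joins GINS and the MCM ring on DNA, had a log2 fold change of -3.92, and E2F8, a repressor of the E2F family, one of -3.23. In whole-culture RNA fewer cells in S phase and less RNA per cell cannot be told apart.

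E2F factors bind short sequences near the start of many replication genes. An E2F motif (TTTCCCGC, TTTGGCGC, TTTCGCGC or TTTGCCGC, either strand) occurred in 20 of 38 S phase promoters (52.6%) and in 908 of 27305 promoters in all (3.33%), in windows of 300 bases from 250 before to 50 after the start. DNA repair promoters held it in 10 of 35 cases (28.6%) and G2 and mitosis promoters in 2 of 35 (5.71%). A pair of examples, from the genes of the S phase list, are printed from RefSeq (GRCh38.p14), 120 bases each on the gene's own strand, minus in both, with the motif in capitals. GINS2 is at chr16:85688922-85689041, and MCM3, a helicase subunit with a log2 fold change of -2.18 in -Asn+Fe over +Asn, at chr6:52284853-52284972. A match describes the letters only.
GINS2: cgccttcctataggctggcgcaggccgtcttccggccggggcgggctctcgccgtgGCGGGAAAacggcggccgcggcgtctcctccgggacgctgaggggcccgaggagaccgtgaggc
MCM3: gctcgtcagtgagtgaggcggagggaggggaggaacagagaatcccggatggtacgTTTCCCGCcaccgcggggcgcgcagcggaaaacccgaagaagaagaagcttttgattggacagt

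Mitotic genes were also low. Of 42 G2 and mitosis genes 41 were called lower in -Asn+Fe than in +Asn and 0 higher (median log2 -1.67, against -0.62 in -Asn over +Asn), and 33 were further away with iron. CCNB1, the mitotic cyclin, was at 59.9, 71.01 and 59.5 CPM in -Asn+Fe, 128, 111 and 113 CPM in -Asn and 139.5, 133 and 138 CPM in +Asn (log2 -1.11, adjusted p = 3.56e-09). All -Asn+Fe libraries lay below all -Asn libraries, and those below all +Asn libraries, but the difference between -Asn and +Asn was called in 9 of 15 other settings. SPC24, a kinetochore protein, averaged 4.06 ± 0.911 CPM in -Asn+Fe and 40.5 ± 2.93 CPM in +Asn, and KIF20A, a kinesin of cytokinesis, 14.3 ± 0.349 and 92.1 ± 3.199 CPM. UBE2C, an enzyme that marks mitotic proteins for destruction, was the list's member at the complete-medium level, at 27.9 ± 7.17 CPM in -Asn+Fe, 54.4 ± 8.17 CPM in -Asn and 30.8 ± 3.64 CPM in +Asn, although without -Asn+Fe replicate 2 it was called lower.

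DNA repair genes, many of which work at replication forks, were called lower in 36 of 42 cases and higher in 3 (median log2 -1.496), and 27 were further away with iron. RAD54L, a motor of homologous recombination, averaged 4.24 ± 0.0661 CPM in -Asn+Fe and 75.1 ± 0.409 CPM in +Asn (log2 -4.15), and UNG, the uracil-DNA glycosylase, 8.47 ± 0.249 and 157 ± 6.17 CPM (log2 -4.21). FANCE, of the Fanconi anaemia complex, XPA, of nucleotide excision repair, and LIG3, a DNA ligase, lay within 1.5-fold (log2 -0.06, -0.15 and -0.33). De novo purine synthesis was called lower in 14 of 14 genes (median log2 -1.11), with 1 part way back and 4 further away. PAICS, which carries out consecutive steps of the pathway, averaged 199 ± 11.1 CPM in -Asn+Fe, 201 ± 7.37 CPM in -Asn and 711 ± 3.81 CPM in +Asn. Of 49 replication-dependent histone genes 19 were called higher (38.8%, near the 33.1% of all tested genes) and 3 lower (6.12%, against 32.1%). Their median log2 was 0.56, and 2.44 over the members that pass the stricter filter. These short, near-identical genes share reads, and their counts are uncertain, because how reads mapping to several places were treated is not given.

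The amino acid response stayed up. Of 34 tested ATF4 and amino acid response genes 32 were called higher in -Asn+Fe than in +Asn (33.1% of all tested genes) and 1 lower, 26 past 1.5-fold upward (17.8% of all tested genes), with a median log2 fold change of 2.16 (1.87 in -Asn over +Asn). DDIT3, the stress transcription factor CHOP, was at 166, 182 and 164 CPM in -Asn+Fe, 204, 152 and 156 CPM in -Asn and 6.399, 6.59 and 6.17 CPM in +Asn (26.7-fold, log2 4.74 with SE 0.11, adjusted p = 5.34e-15). The -Asn+Fe and -Asn libraries overlapped, and both lay far above +Asn. ATF4 itself was at 794, 872 and 794 CPM in -Asn+Fe and 427, 424 and 439.9 CPM in +Asn (log2 0.93). TRIB3, a pseudokinase that acts back on ATF4, averaged 191 ± 20.8 CPM in -Asn+Fe and 4.95 ± 0.805 CPM in +Asn, and CHAC1, which degrades glutathione, 44.5 ± 2.67 and 0.819 ± 0.275 CPM. SLC7A11, the cystine carrier that is also an NRF2 target, was at 803, 680.5 and 745 CPM in -Asn+Fe, 177, 290.1 and 302 CPM in -Asn and 17.5, 18.9 and 15.8 CPM in +Asn (42.7-fold, log2 5.42), and the 3 groups did not overlap.

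Few members of that list came back. INHBE, a subunit of activin, was part way, at 23.8, 26.1 and 23.02 CPM in -Asn+Fe, 38.9, 36.6 and 36.6 CPM in -Asn and 0.0535, 0.0864 and 0.0841 CPM in +Asn. PYCR1, of proline synthesis, counted as back at 76.99 ± 3.97 CPM against 59.3 ± 7.47 CPM in +Asn, a call that held in 5 of 15 other settings. ALDH18A1, also of proline synthesis, was the member called lower (log2 -0.97). ASNS, which encodes asparagine synthetase, was close to the low-count filter at 0.532, 0.547 and 0.939 CPM in -Asn+Fe, 0.321, 0.345 and 0.392 CPM in -Asn and 0.375, 0.173 and 0.448 CPM in +Asn, and its call (2.001-fold over +Asn, adjusted p = 0.036) was lost without a low-count filter, without -Asn+Fe replicate 3, and without +Asn replicate 1 or 2. BCAT1, a branched-chain aminotransferase, did not pass (log2 0.20, interval -0.02 to 0.43).

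The ATF4-C/EBP composite motif (TGATGNAA, either strand, an ATF core joined to a C/EBP core) occurred in 7 of 31 promoters of the list (22.6%) and in 6 of 16 promoters of cytosolic aminoacyl-tRNA synthetases (37.5%), against 3.67% of all promoters. The promoter stretch of CHAC1 (chr15:40953221-40953340, plus strand) and that of SLC3A2, the heavy chain that carries SLC7A11 and SLC7A5 to the membrane (chr11:62881629-62881748, plus strand), are shown with the match in capitals.
CHAC1: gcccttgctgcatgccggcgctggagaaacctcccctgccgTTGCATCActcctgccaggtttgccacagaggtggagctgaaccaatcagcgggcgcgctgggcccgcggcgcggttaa
SLC3A2: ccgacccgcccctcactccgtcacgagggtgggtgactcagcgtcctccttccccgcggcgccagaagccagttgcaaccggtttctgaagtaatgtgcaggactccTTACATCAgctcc
SLC3A2 was at 543, 616 and 589 CPM in -Asn+Fe, 518, 448 and 437 CPM in -Asn and 111, 88.9 and 98.2 CPM in +Asn, 5.87-fold higher in -Asn+Fe than in +Asn.

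The enzymes that load transfer RNAs were split. Of 19 cytosolic synthetases 10 were called higher and 7 lower (median log2 0.63). WARS, for tryptophan, was at 1743, 1747 and 1756 CPM in -Asn+Fe, 2076, 1918 and 1951 CPM in -Asn and 98.2, 100.04 and 94.7 CPM in +Asn (17.9-fold over +Asn, adjusted p = 4.11e-16). SARS, GARS and MARS, for serine, glycine and methionine, had log2 fold changes of 1.69, 1.51 and 1.33 in -Asn+Fe over +Asn. Mitochondrial synthetases were called lower in 9 of 15 cases and higher in 1, with 9 within 1.5-fold, and their median of -0.23 turned to 0.03 with library totals. In serine, glycine and folate one-carbon metabolism 10 of 17 were called higher and 7 lower. Its members SHMT1, MTHFD1 and TYMS, called lower (log2 -2.46, -2.097 and -2.72), supply folates and thymidylate for DNA synthesis.

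Endoplasmic reticulum stress and autophagy genes were high in part. In the unfolded protein response 16 of 23 were called higher and 3 lower (median log2 0.63, and 0.42 without -Asn+Fe replicate 2), with 6 within 1.5-fold (26.1%, against 25.4% of all tested genes). ERN1, the sensor IRE1, was at 213, 212 and 216 CPM in -Asn+Fe, 155, 172 and 170.3 CPM in -Asn and 8.11, 9.07 and 7.54 CPM in +Asn (25.9-fold), and the 3 groups did not overlap. SYVN1, a ubiquitin ligase of protein export from the reticulum, was back at 139.5 ± 6.71 CPM against 204 ± 4.38 CPM in -Asn and 114 ± 3.97 CPM in +Asn, except with upper-quartile factors, library totals and the stricter filter. In autophagy and lysosome 17 of 33 were called higher and 5 lower, with 18 within 1.5-fold (54.5%, against 25.4% of all tested genes). GABARAPL1, an autophagosome protein, averaged 60.6 ± 2.896 CPM in -Asn+Fe, 26.5 ± 2.399 CPM in -Asn and 5.89 ± 0.765 CPM in +Asn. SQSTM1, the cargo receptor p62 and an NRF2 target, averaged 111 ± 2.48, 56.3 ± 7.87 and 26.8 ± 2.0997 CPM in the same order. ULK1, the kinase that starts autophagy, was back in all settings at 63.2 ± 3.96 CPM, against 51.05 ± 4.18 CPM in -Asn and 77.6 ± 2.99 CPM in +Asn.

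Among genes of iron uptake and storage, the transferrin receptor and both ferritin chains stood further from complete medium with iron than without it. TFRC, the transferrin receptor (chromosome 3, 196027183 to 196082096 of hg38), was at 41.9, 45.8 and 45.3 CPM in -Asn+Fe, 95.6, 110.02 and 114 CPM in -Asn and 613, 583 and 601 CPM in +Asn, 13.5-fold lower in -Asn+Fe than in +Asn (log2 -3.76 with SE 0.07, adjusted p = 1.44e-15), and the 3 groups did not overlap. FTL, the light chain of the iron store ferritin, was at 1271, 1363 and 1341 CPM in -Asn+Fe, 525, 409 and 394 CPM in -Asn and 392, 377 and 366 CPM in +Asn (log2 1.81, adjusted p = 5.96e-11), and FTH1, the heavy chain, at 1069, 1166 and 1066 CPM in -Asn+Fe, 956, 698 and 708 CPM in -Asn and 348, 330.4 and 343 CPM in +Asn (log2 1.69). For both chains the -Asn+Fe libraries lay above all others. The small FTL difference between -Asn and +Asn was called in 6 of 15 other settings, while its difference between -Asn+Fe and +Asn was called in all 15. The iron list as a whole held 4 higher and 8 lower of 17, with 6 within 1.5-fold, and a median of -0.21 that became 0.04 with library totals. STEAP3, a ferrireductase, and ACO1, which serves as iron regulatory protein 1, were low with and without iron (log2 -1.59 and -1.34 in -Asn+Fe over +Asn). PCBP1, a chaperone that delivers iron to ferritin, and SLC39A14, an importer of iron and zinc, were back in all settings. SLC39A14 was at 51.98, 56.04 and 52.7 CPM in -Asn+Fe, 32.7, 38.6 and 39.2 CPM in -Asn and 57.6, 53.5 and 55.1 CPM in +Asn (log2 -0.05 over +Asn, interval -0.21 to 0.12).

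Heme and iron-sulfur genes were called lower more often than higher. In heme synthesis and breakdown 9 of 13 were called lower and 3 higher (median log2 -0.61). FECH, ferrochelatase, which puts iron into heme, was at 33.6, 33.7 and 33.4 CPM in -Asn+Fe, 21.8, 21.3 and 23.1 CPM in -Asn and 39.1, 36.6 and 36.05 CPM in +Asn, and was back in all settings (log2 -0.15, interval -0.30 to 0.00). ALAD, an earlier enzyme of the pathway, was further away with iron (log2 -1.44), and ABCB10, a mitochondrial transporter of heme synthesis, was part way at 24.7 ± 3.88 CPM against 14.3 ± 0.9699 CPM in -Asn and 77.6 ± 0.906 CPM in +Asn. HMOX1, which breaks heme down, had 1527 counts in -Asn+Fe and 2 in +Asn, summed over 3 libraries each. The CPM ratio was 739, and its 95% interval for counting error alone ran from 204 to 6108. In iron-sulfur cluster assembly 15 of 26 were called lower (57.7%, against 32.1% of all tested genes) and 4 higher (15.4%, against 33.1%). Only 6 were past 1.5-fold on the lower side (23.1%, against 14.5%), and 10 were within 1.5-fold (38.5%, against 25.4%). The summed CPM of the list went the other way, at 2188 to 2335 in -Asn+Fe and 1849 to 1858 in +Asn. SLC25A37, mitoferrin-1, was back in all settings at 28.03 ± 1.89 CPM against 20.4 ± 0.357 CPM in -Asn and 28.96 ± 1.4997 CPM in +Asn. NFU1, a cluster carrier, was raised in -Asn and back in -Asn+Fe, at 31.4, 38.4 and 31.3 CPM against 71.6, 52.3 and 53.3 CPM in -Asn and 31.4, 29.5 and 32.6 CPM in +Asn, apart from library totals, under which it was part way. Metallothioneins and zinc transporters were called lower in 6 of 8 cases, among them MT1X at 13.7 ± 1.75 CPM in -Asn+Fe and 47.02 ± 5.73 CPM in +Asn.

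Of 25 tested NRF2 targets and glutathione genes 11 were called higher (44%, against 33.1% of all tested genes) and 8 lower (32%, against 32.1%), and 10 were past 1.5-fold on the higher side (40%, against 17.8%). The median was 0.11 in -Asn+Fe over +Asn (0.06 to 0.37 across settings), against -0.54 in -Asn over +Asn. NQO1, a quinone reductase, was at 102, 107 and 107 CPM in -Asn+Fe, 15.1, 13.2 and 13.5 CPM in -Asn and 8.49, 8.58 and 9.61 CPM in +Asn (11.8-fold over +Asn, adjusted p = 3.23e-15). ME1, the malic enzyme that makes NADPH, was at 12.3, 11.8 and 12.4 CPM in -Asn+Fe, 1.31, 1.48 and 1.27 CPM in -Asn and 1.205, 1.09 and 0.533 CPM in +Asn (12.9-fold), and its -Asn and +Asn libraries lay close together while the -Asn+Fe libraries stood well above. OSGIN1, an oxidative stress gene, averaged 13.04 ± 0.817 CPM in -Asn+Fe and 0.635 ± 0.324 CPM in +Asn. GCLM, the regulatory subunit of the enzyme that starts glutathione synthesis, was at 138, 128 and 138 CPM in -Asn+Fe, 29.04, 34.2 and 34.8 CPM in -Asn and 37.8, 39.999 and 34.5 CPM in +Asn (log2 1.84 over +Asn), and its small decrease in -Asn was called here and in 4 of 15 other settings. PIR, pirin, a nuclear iron protein, stood on the other side of +Asn in every setting, at 36.2, 41.3 and 36.9 CPM in -Asn+Fe, 13.2, 9.97 and 10.2 CPM in -Asn and 16.8, 14.8 and 17.2 CPM in +Asn.

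Of the 25 members 7 were back (28%, against 5.6% of all tested genes) and 5 of these in all settings, among them GCLC, GSR, PGD and TALDO1. GCLC and GSR make and reduce glutathione, and PGD and TALDO1 belong to the pentose phosphate pathway, a source of NADPH. GSR, glutathione reductase, was at 75.6, 73.4 and 75.3 CPM in -Asn+Fe, 40.2, 42.1 and 40.4 CPM in -Asn and 79.8, 80.7 and 81.4 CPM in +Asn (log2 -0.11, interval -0.24 to 0.02). GCLC, the catalytic partner of GCLM, was at 59.7, 58.04 and 57.6 CPM in -Asn+Fe, 36.8, 37.8 and 39.2 CPM in -Asn and 51.4, 54.3 and 56.6 CPM in +Asn (log2 0.11, interval -0.03 to 0.25), its -Asn+Fe libraries just above those of +Asn, while GCLM stood 3.59-fold above its own +Asn level. TALDO1, transaldolase, averaged 142 ± 5.36 CPM in -Asn+Fe, 89.3 ± 9.36 CPM in -Asn and 152 ± 5.26 CPM in +Asn. TXNRD1, thioredoxin reductase, was at 584, 582 and 576 CPM in -Asn+Fe, 250.3, 273 and 268 CPM in -Asn and 459, 474 and 489 CPM in +Asn. It was called higher than in +Asn yet within 1.5-fold, and so counted as back here. With upper-quartile factors, library totals and the stricter filter it was past +Asn. PRDX1, a peroxiredoxin, and GSS, glutathione synthetase, were called lower than in +Asn (log2 -1.07 and -1.23).

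The antioxidant response motif (TGACNNNGC, either strand, which overlaps the AP-1 motif TGACTCA where the letters allow both) occurred in 6 of 19 promoters of the list (31.6%), against 13.6% of all promoters. TXNRD1 (chr12:104215624-104215743, plus strand) counted as back, although it was called higher than in +Asn. GCLM (chr1:93909401-93909520, minus strand) and ME1 (chr6:83431125-83431244, minus strand) stood above. Each is printed with a match in capitals.
TXNRD1: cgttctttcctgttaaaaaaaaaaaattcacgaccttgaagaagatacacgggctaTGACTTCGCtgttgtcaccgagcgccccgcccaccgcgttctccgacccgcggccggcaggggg
GCLM: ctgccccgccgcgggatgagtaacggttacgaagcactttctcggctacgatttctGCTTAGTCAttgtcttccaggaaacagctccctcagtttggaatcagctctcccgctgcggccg
ME1: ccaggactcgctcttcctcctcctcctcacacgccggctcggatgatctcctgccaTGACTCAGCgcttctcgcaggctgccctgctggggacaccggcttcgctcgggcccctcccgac

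Heat shock chaperones, which fold new and damaged proteins, had the largest share part way back of the 44 lists. Of 17 tested members 7 were part way (41.2%, against 3.61% of all tested genes), 2 were back and 0 further away. Against +Asn 14 were still called lower and 2 higher, with a median log2 of -0.93 (-1.23 in -Asn over +Asn). HSPA8, the constitutive HSP70, was at 823, 871 and 865 CPM in -Asn+Fe, 498, 413 and 431 CPM in -Asn and 1478, 1566 and 1579 CPM in +Asn, which is 55.3% of the +Asn mean in -Asn+Fe and 29.02% in -Asn. HSPH1, a nucleotide exchange factor for HSP70, was at 295, 281 and 305 CPM in -Asn+Fe, 126, 129 and 139 CPM in -Asn and 529, 568 and 582 CPM in +Asn, or 52.5% and 23.5% of +Asn. In both genes the 3 groups did not overlap. The members that came back were DNAJA1 and DNAJB1, J-domain partners of HSP70. DNAJA1 was at 613, 595 and 603 CPM in -Asn+Fe, 360.1, 304 and 332 CPM in -Asn and 562, 619.9 and 638 CPM in +Asn (log2 -0.01 over +Asn, interval -0.17 to 0.15), with +Asn libraries on both sides of the -Asn+Fe ones. DNAJB1, called lower than in +Asn yet within 1.5-fold, averaged 83.3 ± 2.29 CPM in -Asn+Fe, 53.7 ± 5.595 CPM in -Asn and 99.8 ± 7.33 CPM in +Asn. HSPB1, a small heat shock protein, showed no call between -Asn+Fe and -Asn (log2 -1.79 over +Asn). HSPE1, the mitochondrial co-chaperonin (log2 -1.59 over +Asn), showed none here and in 7 of 15 other settings and was part way in the other 8. DNAJB4 was higher than in +Asn (log2 1.09), and so was BAG3, an exchange factor at a low level of 1.82 and 0.804 CPM in -Asn+Fe and +Asn. HSPA1A and HSPA1B, the inducible HSP70 pair, had 0 counts in the 9 libraries. These near-identical genes share reads, whose treatment is not known.

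The heat shock element, searched by name in both orientations of its inverted GAA repeats, occurred in 3 of 20 promoters of the list (15%) and in 133 of 27305 overall (0.487%). It was found in DNAJA1 (chr9:33025203-33025322, plus strand), which was back, and in HSPA8 (chr11:123062267-123062386, minus strand), which was part way.
DNAJA1: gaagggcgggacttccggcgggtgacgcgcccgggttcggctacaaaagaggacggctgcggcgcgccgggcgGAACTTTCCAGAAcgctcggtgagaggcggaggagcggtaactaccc
HSPA8: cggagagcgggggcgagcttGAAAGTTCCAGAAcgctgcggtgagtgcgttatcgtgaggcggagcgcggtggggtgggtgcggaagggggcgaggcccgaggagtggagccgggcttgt

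Of 30 proteasome subunits tested, 17 were called lower (56.7%, against 32.1% of all tested genes) and 0 higher, and 15 were within 1.5-fold (50%, against 25.4%). Of the 30, 7 were back (23.3%, against 5.6%), PSMA3, PSMD11 and PSMD12 among them in all settings. PSMA3, of the catalytic core, averaged 131 ± 4.22 CPM in -Asn+Fe, 89.5 ± 10.9 CPM in -Asn and 147 ± 7.85 CPM in +Asn. PSMD1, a scaffold of the regulatory cap, was part way at 95.5 ± 5.48 CPM in -Asn+Fe, 77.04 ± 3.04 CPM in -Asn and 249 ± 5.59 CPM in +Asn. PSMD11 and PSMD12, cap subunits, averaged 156 and 135 CPM in -Asn+Fe and 175 and 143 CPM in +Asn.

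**Figure D3:**
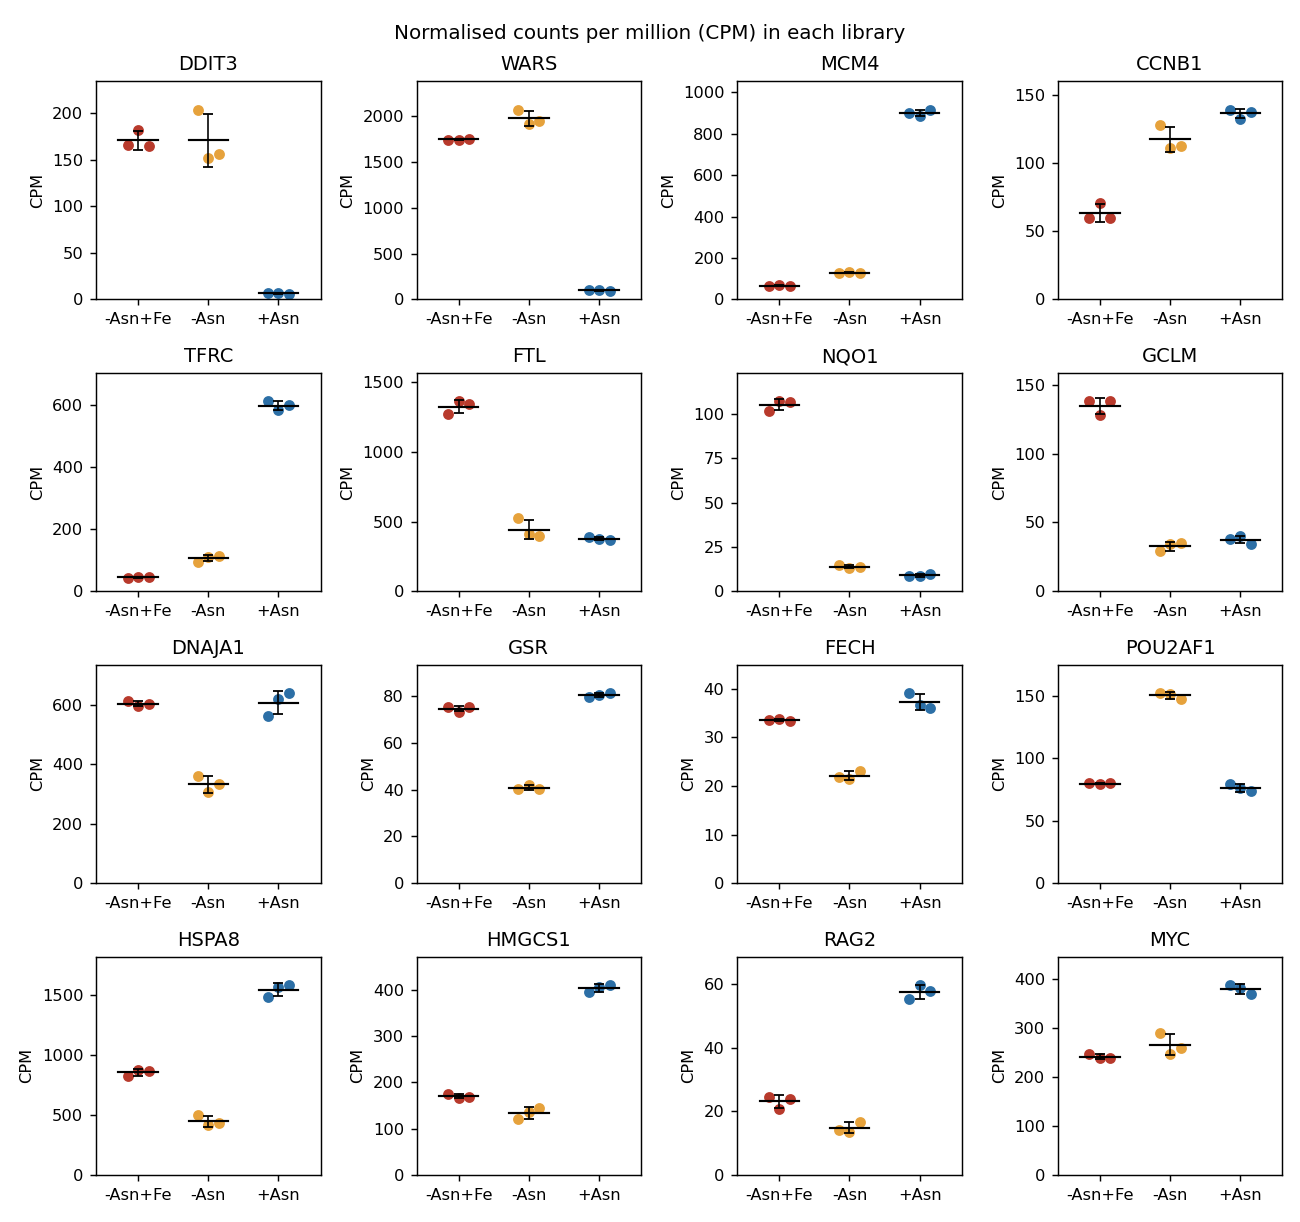
CPM (y axis, linear from 0, scale set per gene) of 16 genes in the 3 libraries of -Asn+Fe, -Asn and +Asn (points), with the mean (line) and SD (bars). DDIT3 and WARS lie near the -Asn libraries in -Asn+Fe, MCM4, CCNB1, TFRC, FTL and NQO1 lie further from +Asn than the -Asn libraries do, DNAJA1, GSR, FECH and POU2AF1 are back near +Asn, and HSPA8, HMGCS1 and RAG2 lie in between.

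Of 24 tested genes of cholesterol synthesis and uptake 20 were called lower in -Asn+Fe than in +Asn (83.3%, against 32.1% of all tested genes) and 0 higher, with a median log2 of -0.90. Of the 24, 5 were back (20.8%, against 5.6% of all tested genes) and 4 part way (16.7%, against 3.61%). STARD4, a sterol carrier, and SC5D, a late enzyme of the pathway, were back in all settings. STARD4 was at 81.6, 75.6 and 78.7 CPM in -Asn+Fe, 38.4, 53.8 and 56.4 CPM in -Asn and 81.9, 78.8 and 75.7 CPM in +Asn, and its -Asn+Fe and +Asn libraries overlapped. HMGCS1, the first committed step, was part way at 175, 166 and 169 CPM in -Asn+Fe, 121, 135 and 145 CPM in -Asn and 394, 406 and 409.6 CPM in +Asn. ACAT2, FDPS and EBP were further away with iron (log2 -3.13, -1.79 and -1.57), and DHCR7, which reduces a double bond at the end of the pathway, showed no call between -Asn+Fe and -Asn (log2 -2.07 over +Asn). PMVK, of the mevalonate steps, had been raised in -Asn and was back at 23.6 ± 3.53 CPM against 21.4 ± 3.59 CPM in +Asn, but part way or undecided with upper-quartile factors, library totals and the stricter filter.

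In fatty acid synthesis 13 of 15 were called lower and 2 higher, with none back. SCD, the stearoyl-CoA desaturase, an iron enzyme, was part way at 126, 138 and 126 CPM in -Asn+Fe, 96.9, 109 and 114 CPM in -Asn and 456, 445 and 462 CPM in +Asn. SLC25A1, the citrate carrier, was further away (log2 -2.27), and FADS2, whose reads can overlap those of FADS1, did not differ by a call from -Asn (log2 -1.99 over +Asn). Glycolysis was called lower in 14 of 21 cases and higher in 3 (median log2 -0.94). LDHA, lactate dehydrogenase, was at 383, 404 and 364 CPM in -Asn+Fe, 448, 376 and 406 CPM in -Asn and 1237, 1286 and 1282 CPM in +Asn, with both groups without asparagine far below +Asn. HK2, hexokinase 2, was back in all settings at 177 ± 4.08 CPM, against 136 ± 10.8 CPM in -Asn and 190.1 ± 9.59 CPM in +Asn. PFKFB4, which sets fructose 2,6-bisphosphate, was back at 4.88 ± 0.519 CPM against 2.52 ± 0.145 CPM in -Asn and 5.401 ± 0.743 CPM in +Asn, and undecided without +Asn replicate 1. PKM, pyruvate kinase, averaged 664 ± 22.4, 552 ± 68.9 and 1855 ± 40.4 CPM in -Asn+Fe, -Asn and +Asn.

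Cytosolic ribosomal protein genes stood at the complete-medium level more often than any other list with at least 8 tested members. Of 77 tested, 64 lay within 1.5-fold of +Asn (83.1%, against 25.4% of all tested genes), 8 were called higher and 8 lower, and none was past 1.5-fold. Their median was 0.04, against 0.26 in -Asn over +Asn, and it changed sign across settings (-0.03 to 0.30). The member furthest below +Asn was RPS26, at 138 ± 18.4 CPM in -Asn+Fe and 238 ± 17.8 CPM in +Asn (log2 -0.79), and the one furthest above was RPL37 (log2 0.53). Of 43 genes of ribosome biogenesis and RNA polymerase I, 36 were called lower and 1 higher, with 15 within 1.5-fold (median log2 -0.44). UBTF, an RNA polymerase I factor, averaged 109.9 ± 7.57 CPM in -Asn+Fe, 103 ± 3.16 CPM in -Asn and 339 ± 21.4 CPM in +Asn, and NHP2, of the small nucleolar particles, 35.5 ± 4.32, 44.7 ± 6.63 and 119.5 ± 10.9 CPM. MYC, which drives many of these genes, was at 246, 238 and 239 CPM in -Asn+Fe, 289, 247 and 259 CPM in -Asn and 387, 381 and 368 CPM in +Asn (log2 -0.65, adjusted p = 4.11e-07).

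Hosts of small nucleolar RNAs, noncoding transcripts many of which start with the same pyrimidine-rich stretch as ribosomal protein mRNAs, were called higher in 16 of 22 cases (72.7%, against 33.1% of all tested genes) and lower in 3, and 9 were part way back (40.9%, against 3.61%). ZFAS1 was at 154, 181 and 169 CPM in -Asn+Fe, 252, 219 and 206 CPM in -Asn and 60.7, 53.2 and 56.8 CPM in +Asn. SNHG8 was the highest in fold (log2 1.89), while SNHG3 had been lowered in -Asn and was back in all settings at 95.7 ± 2.06 CPM against 72.97 ± 3.45 CPM in -Asn and 95.5 ± 7.97 CPM in +Asn.

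Mitochondrial genes lay below complete medium. Of 73 mitochondrial ribosomal protein genes 52 were called lower and 6 higher (median log2 -0.39). Back were 7 of them (9.59%, against 5.6% of all tested genes and 1013 of the 10090 genes of the stricter filter). Of 71 nuclear-encoded respiratory chain genes 54 were called lower and 3 higher (median log2 -0.63, against -0.35 in -Asn over +Asn), with 18 further away (25.4%, against 11.9% of all tested genes) and 4 back (5.63%, the share over all tested genes being 5.6%). ATP5MC1, of the ATP synthase ring, was at 20.6, 20.5 and 21.97 CPM in -Asn+Fe, 31.6, 26.1 and 24.2 CPM in -Asn and 74.4, 63.99 and 63.2 CPM in +Asn. NDUFB5, of complex I, was back in all settings at 58.3 ± 1.45 CPM against 71.1 ± 3.95 CPM in -Asn and 52.8 ± 3.49 CPM in +Asn. Of the 13 mRNAs of the mitochondrial genome 11 were called lower and 0 higher (median log2 -0.68). MT-CO3, a cytochrome oxidase subunit, averaged 2759 ± 170.1 CPM in -Asn+Fe and 5437 ± 821 CPM in +Asn, and MT-CO1 10541 ± 367 and 11606 ± 1189.9 CPM (log2 -0.14, not called and within 1.5-fold). UCP2, an inner membrane carrier, had been raised in -Asn and stood below +Asn in -Asn+Fe, at 35.7, 39.9 and 38.99 CPM, 116, 102 and 98.1 CPM in -Asn and 68.99, 67.4 and 63.3 CPM in +Asn.

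**Figure D4:**
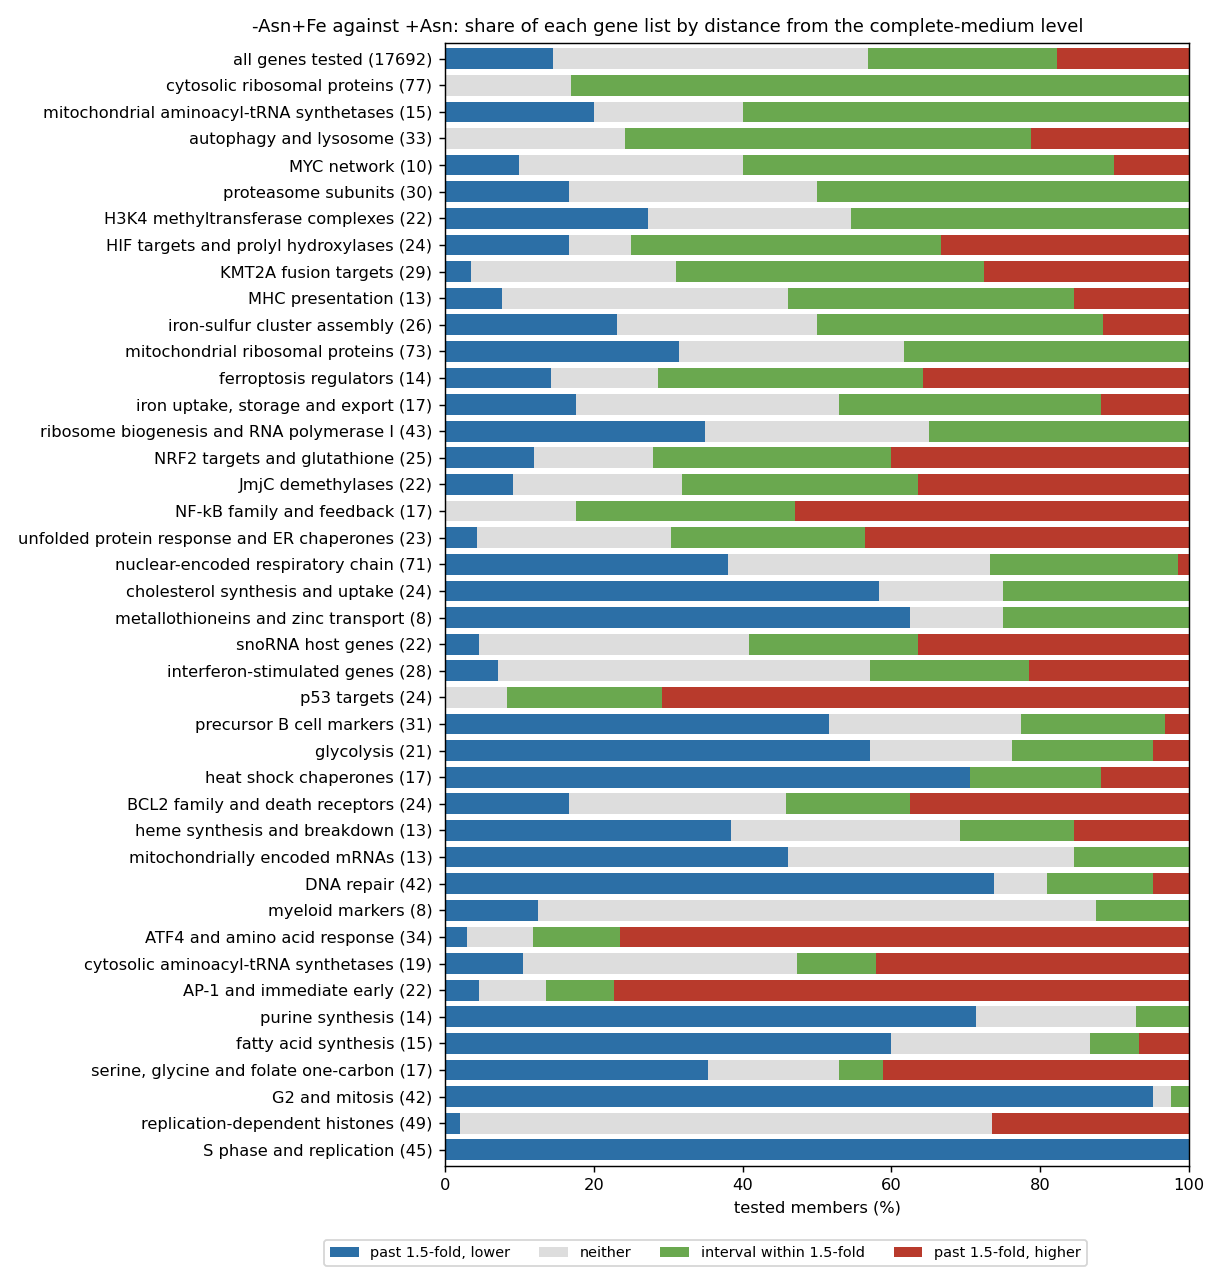
Share of the tested members of each gene list with at least 8 tested members (x axis, %) that lay past 1.5-fold below +Asn (blue), within 1.5-fold (green), past 1.5-fold above (red) or in none of these (grey) in -Asn+Fe, with all tested genes on top. Cytosolic ribosomal proteins have 64 of 77 within 1.5-fold, and S phase genes 45 of 45 past it on the lower side.

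Growth arrest and death genes stood above complete medium. Of 24 p53 targets 21 were called higher in -Asn+Fe than in +Asn and 0 lower (median log2 1.26, against 0.66 in -Asn over +Asn), and 11 were further away. CDKN1A, the cell cycle inhibitor p21, was at 323, 350.4 and 343 CPM in -Asn+Fe, 205, 187 and 179.6 CPM in -Asn and 70.7, 54.2 and 57.2 CPM in +Asn (log2 2.48, adjusted p = 9.07e-13). TNFRSF10B, the death receptor DR5 and also a target of CHOP, was at 188, 197 and 184 CPM in -Asn+Fe, 127, 138 and 129 CPM in -Asn and 5.78, 4.75 and 4.65 CPM in +Asn (37.4-fold). In both genes the 3 groups did not overlap. PPM1D, a phosphatase that acts back on p53, was within 1.5-fold at 70.7 ± 3.56 CPM against 67.3 ± 3.47 CPM in +Asn. In the BCL2 family and death receptors 15 of 24 were called higher and 6 lower. PMAIP1 (NOXA) and BBC3 (PUMA), which oppose BCL2 proteins, had log2 fold changes of 1.89 and 2.48, while MCL1, which protects from them, was back in all settings at 256 ± 5.53 CPM against 212 ± 13.6 CPM in -Asn and 279.5 ± 6.87 CPM in +Asn.

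NF-kB genes were called higher in 10 of 17 cases and lower in 2 (33.1% and 32.1% of all tested genes), with 8 further away (11.9% of all tested genes). Their median log2 was 1.27, against 0.51 in -Asn over +Asn, but it was 0.52 without a low-count filter and 0.72 with the stricter one, under which other numbers of members are tested. BIRC3, an inhibitor of apoptosis, was at 15.2, 13.1 and 16.1 CPM in -Asn+Fe, 2.46, 2.04 and 1.82 CPM in -Asn and 0.428, 0.576 and 0.589 CPM in +Asn. TNFAIP3, the feedback inhibitor A20, averaged 95.3 ± 3.37 CPM in -Asn+Fe, 31.5 ± 1.63 CPM in -Asn and 17.96 ± 0.4305 CPM in +Asn. NFKBIA, the other feedback inhibitor, did not follow them: it was lowered in -Asn and back in all settings, at 59.4, 63.3 and 62.1 CPM in -Asn+Fe, 42.7, 35.7 and 37.3 CPM in -Asn and 59.6, 63.2 and 60.3 CPM in +Asn. AP-1 and immediate early genes were called higher in 20 of 22 cases and lower in 1, with 5 part way. JUN was part way at 102, 118 and 104 CPM in -Asn+Fe, 144, 138 and 130.3 CPM in -Asn and 4.31, 3.46 and 4.15 CPM in +Asn, still 27.1-fold above +Asn, and FOS was further away at 8.16 ± 0.599 CPM against 3.69 ± 0.243 CPM in -Asn and 1.02 ± 0.374 CPM in +Asn. Among hypoxia-inducible factor targets 12 of 24 were called higher and 6 lower, VEGFA, the vascular growth factor, at 252 ± 5.57 CPM in -Asn+Fe and 6.98 ± 0.467 CPM in +Asn. Interferon-stimulated genes held 11 higher and 12 lower of 28, with a median of -0.09 that ranged from -0.13 to 0.23 across settings. Of 24 MHC presentation genes only 13 had enough counts to be tested. These held 4 higher and 3 lower, with a median of 0.03 that ranged from -0.02 to 0.30. B2M, the light chain of MHC class I, had been raised in -Asn and was back in all settings at 176 ± 8.49 CPM against 239 ± 34.9 CPM in -Asn and 177 ± 9.11 CPM in +Asn. Ferroptosis regulators held 6 higher and 6 lower of 14, with POR, a reductase that feeds lipid peroxidation, back in all settings at 60.01 ± 2.496 CPM against 39.96 ± 2.97 CPM in -Asn and 60.7 ± 1.03 CPM in +Asn.

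JmjC demethylases, which need iron and 2-oxoglutarate to remove histone methyl groups, were called higher in 12 of 22 cases and lower in 6 (median log2 0.35). KDM6B, an H3K27 demethylase, was at 304, 306 and 318 CPM in -Asn+Fe, 249, 257 and 252 CPM in -Asn and 34.2, 35.6 and 35.9 CPM in +Asn (8.78-fold), and KDM5B, an H3K4 demethylase, at 15.5, 13.9 and 14.8 CPM in -Asn+Fe, 11.2, 11.5 and 12.4 CPM in -Asn and 1.04, 0.7199 and 0.925 CPM in +Asn. H3K4 methyltransferase complexes were called lower in 13 of 22 cases and higher in 2 (median log2 -0.44), with 10 within 1.5-fold. KMT2A, the gene whose fusion drives this leukaemia, was at 393, 386 and 381 CPM in -Asn+Fe, 282, 405 and 383 CPM in -Asn and 509, 576 and 578 CPM in +Asn (log2 -0.52, adjusted p = 4.09e-04), in counts that do not tell the fused from the normal allele. SETD1B, another H3K4 methyltransferase, was back in all settings at 125 ± 2.34 CPM against 89.7 ± 7.67 CPM in -Asn and 138 ± 4.41 CPM in +Asn. Of 29 targets of KMT2A fusions 18 were called higher and 6 lower (median log2 0.46), with HOXA9 at 134 ± 2.82 CPM in -Asn+Fe and 93.8 ± 6.08 CPM in +Asn and MEIS1, its partner, within 1.5-fold (log2 -0.11). In the MYC network 4 of 10 were called higher and 4 lower, MXD1, a repressor that competes with MYC for MAX, at 69.3 ± 3.79 CPM in -Asn+Fe and 17.3 ± 1.26 CPM in +Asn.

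Genes of the B lineage were lower in 23 of 31 cases and higher in 5 (median log2 -0.79, against -0.63 in -Asn over +Asn), with 3 back, 5 part way and 8 further away. RAG1 and RAG2, the recombinase that joins antibody gene segments, were part way, RAG1 in 12 of 15 other settings. RAG2 was at 24.6, 20.9 and 23.9 CPM in -Asn+Fe, 14.3, 13.5 and 16.7 CPM in -Asn and 55.2, 59.7 and 57.8 CPM in +Asn, or 40.2% and 25.8% of the +Asn mean, and RAG1 at 28.4% and 22.6%. IGLL1, of the surrogate light chain, and DNTT, which adds bases at the joins, were further away (log2 -2.52 and -2.02). POU2AF1, a B cell coactivator, had been raised in -Asn and was back in all settings, at 79.9, 79.1 and 80.4 CPM in -Asn+Fe, 152, 152 and 148 CPM in -Asn and 79.4, 75.97 and 73.4 CPM in +Asn. SPI1, the factor PU.1 of myeloid and B cells, was also back in all settings (57.5 ± 1.63 CPM in -Asn+Fe, 81.2 ± 8.89 CPM in -Asn and 51.7 ± 2.68 CPM in +Asn).

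Outside the lists, the genes back at the complete-medium level after the largest starvation changes had mixed functions. BSPRY, with log2 1.41 in -Asn over +Asn, was at 12.4, 11.4 and 12.4 CPM in -Asn+Fe, 36.4, 32.3 and 33.1 CPM in -Asn and 12.2, 12.6 and 13.4 CPM in +Asn. LONRF2, a ring finger gene with log2 -1.52 in -Asn over +Asn, was at 14.5, 12.9 and 11.8 CPM in -Asn+Fe, 4.07, 4.48 and 4.92 CPM in -Asn and 11.8, 12.7 and 14.2 CPM in +Asn. EMP1, a membrane protein, and GABBR2, a GABA receptor subunit, were also back in all settings (log2 0.01 and -0.25 over +Asn). The largest of all, TNFSF4, the ligand of OX40 (log2 -1.61 in -Asn), and LBH, a developmental regulator (log2 1.54), stood near the edge of 1.5-fold: LBH was at 296 CPM in -Asn+Fe, 635 CPM in -Asn and 219 CPM in +Asn and was back in 5 of 15 other settings. PLP2 and CORO1A, an actin-binding protein of blood cells, were back except with library totals, at 120.1 and 238 CPM in -Asn+Fe, 240.2 and 451 CPM in -Asn, and 107 and 215 CPM in +Asn.

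Among the 66 genes past the other side of the complete-medium level, IQGAP3, a scaffold of dividing cells, had been higher in -Asn and was lower in -Asn+Fe than in +Asn. It was at 21.1, 25.3 and 22.3 CPM in -Asn+Fe, 88.4, 103 and 98.97 CPM in -Asn and 48.9, 51.03 and 52.1 CPM in +Asn. MAP1A, a microtubule-associated protein, did the opposite, at 162, 184 and 174 CPM in -Asn+Fe, 43.6, 56.6 and 55.3 CPM in -Asn and 93.3, 103 and 99.8 CPM in +Asn. DAB2IP, a regulator of RAS, was below +Asn in -Asn+Fe (log2 -0.69) and above it in -Asn (log2 0.45). FBXO30, a ubiquitin ligase subunit, was above +Asn in -Asn+Fe (log2 1.09) and below it in -Asn (log2 -0.43), a pattern lost with upper-quartile factors, library totals and the stricter filter.

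The largest increases over complete medium were in genes with almost no RNA there. Ranking by fold favours such genes, and a gene picked by its distance from +Asn cannot be back. CNTN4, a neural adhesion gene, had 2246 counts over the 3 -Asn+Fe libraries and 1 over the +Asn libraries (CPM ratio 2174, 95% counting interval 389.8 to 85907). GDF15, a stress cytokine, had 2176 and 1 (ratio 2106, interval 378 to 83231), and JMY, an actin nucleator, 1491 and 1 (ratio 1443, interval 259 to 57042). COL21A1, a collagen, had 1281 and 3 (ratio 413, interval 141 to 2007). KLHDC7B averaged 45.3 ± 1.62 CPM in -Asn+Fe, 28.9 ± 1.75 CPM in -Asn and 0.0453 ± 0.0554 CPM in +Asn, and ASXL3, a Polycomb-related gene, 45.5 ± 1.94, 19.4 ± 2.97 and 0.137 ± 0.0942 CPM. Of the 10 genes with the largest increase, 8 were further away than in -Asn, GDAP1L1 showed no call from -Asn, and INHBE was part way. Picking genes by their size in -Asn+Fe favours those further away, so these counts are a description. The 10 largest decreases were those of CCNE2, CTDSPL, GINS2, UNG, RAD54L, TK1, CCNE1, FAM111B, RRM1 and CDC45. CTDSPL, a phosphatase that acts on RB, was at 1.28 ± 0.202 CPM in -Asn+Fe, 2.81 ± 0.297 CPM in -Asn and 27.5 ± 2.35 CPM in +Asn. FAM111B, a replication-linked protease, averaged 14.4 ± 1.04 CPM in -Asn+Fe and 231 ± 15.3 CPM in +Asn.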

How the data were processed

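RNA of 9 RS4;11 libraries was analysed, 3 each of -Asn+Fe, -Asn and +Asn, from the table of read counts per gene that the authors deposited. Per the submitters' processing notes, reads were handled with bcl2fastq, aligned with STAR 2.7.2a to hg38 and counted with featureCounts of Subread 1.6.5. The strand setting and the handling of reads with several map positions: not given in the sources used here. Of 66738 genes in the table, 60558 lie on the primary chromosomes and 17692 passed edgeR's low-count filter. Groups were fitted together with the quasi-likelihood test of edgeR 4.0.16 (R 4.3.3) on TMM-scaled counts, and p-values were adjusted by Benjamini-Hochberg over all tested genes at 0.05. Residual degrees of freedom were 6. Whether a change passed 1.5-fold was tested with edgeR's test against a fold threshold. CPM, log2 fold changes and 95% intervals were computed from the deposited counts. Members and gene lists were chosen with earlier results of these data known. Named genes were the 10 largest called changes per direction, leading members of each list, the genes back or past the other side after the largest starvation changes, and a fixed set of marker genes. Further names, such as GCLC, TALDO1, STARD4, MCM3, PSMD11, PRDX1 and GSS, were chosen after their values were seen. The fit was also run on simulated counts with known fold changes. There few genes were changed, as many up as down, so the simulation cannot judge the choice of scaling. Alternatives were DESeq2 1.42.0, other scalings, filters and fold limits, a replicate block and each library left out. The peak table was not used, and some genes are not reported here.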

Additional observations from a re-analysis of the deposited data

How the results depend on the processing

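Of 17692 genes tested, 11533 were called between -Asn+Fe and +Asn. The count was 11383 with DESeq2, 11509 with RLE factors, 11803 without a low-count filter and 11906 with only the 6 libraries compared. A stricter low-count filter, which tests 10090 genes, gave 7624 called genes, 3853 higher and 3771 lower, and 3064 past 1.5-fold. A limit of 2-fold in place of 1.5-fold left 2970 genes past it, and a narrower limit, 25% above +Asn and the same ratio below it, left 1430 genes within it and 425 back. With each library left out in turn, the calls ranged from 10756 to 12426, with 5388 to 6457 higher and 5229 to 5969 lower, 5337 to 6149 past 1.5-fold, 4031 to 4980 within it and 663 to 1071 back. Of 5555 values of named genes in other settings, 5136 kept their sign and their side of the threshold, 170 lost their call and 132 gained one. In 117 values, from 41 genes, the sign differed, and 16 of these, all under another scaling, were called in the reported or the other fit. With upper-quartile factors the log2 fold changes were 0.0103 for HARS, 0.20 for DNAJA1, 0.0180 for UROS, 0.19 for POR and 0.0282 for SNHG16. With library totals alone they were 0.0579 for HARS, 0.25 for DNAJA1, 0.20 for SLC39A14, 0.0652 for UROS, 0.21 for SLC25A37, 0.24 for POR, 0.21 for RIOX2, 0.0222 for RBBP5, 0.25 for B2M, 0.0757 for SNHG16 and 0.0088 for GABBR2. These scalings raise all genes alike, as the shift of the all-gene median shows. The median kept its sign in every setting in 36 of the 44 lists. With library totals it moved by more than 1.5 times in several lists. Among these it became -0.19 for H3K4 methyltransferases and for ribosome biogenesis, 0.61 for JmjC demethylases and 0.72 for KMT2A fusion targets. It became -0.36 for heme, -0.09 for iron-sulfur assembly, -0.14 for mitochondrial ribosomal proteins and for the proteasome, -0.43 for mitochondrial mRNAs and -0.38 for the respiratory chain. The highest median over the other settings was 0.37 for NRF2 targets (0.11 reported), 0.48 for autophagy (0.22) and 0.43 for hypoxia-inducible factor targets (0.18). For the MYC network it was 0.35 (0.10 reported), for ferroptosis regulators 0.30 (0.05) and for myeloid markers 0.69 (0.43). The reported fit did not treat the replicate numbers as pairs. Same-numbered libraries of -Asn+Fe and +Asn deviated from their group means with correlations of -0.19, -0.12 and -0.02. With 3 libraries per group, these values show no shared deviation but cannot exclude a pairing. A replicate block gave 11301 called genes and 910 back. Genes with few counts, such as those at 1 to 3 counts in +Asn, are limited by depth.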
